A study of Homo sapiens with 34 samples.

Results

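The 10 genes *HOXA3*, *HOXA5*, *HOXA7*, *HOXA9*, *HOXA10*, *MEIS1*, *PBX3*, *KMT2A*, *AFF1* and *MEN1* were chosen by symbol from 17587 genes listed in at least 1 of 6 tables, of which 13307 were listed in all 6. *HOXA* genes encode homeobox transcription factors of blood stem and progenitor cells that are normally silenced as cells mature. *MEIS1* and *PBX3* encode homeobox proteins of the TALE class that bind DNA together with HOXA proteins. *KMT2A* encodes MLL, a histone methyltransferase that keeps *HOXA* genes active, *MEN1* encodes menin, which holds MLL on chromatin, and *AFF1* encodes AF4, a scaffold of the super elongation complex and the partner of MLL in the MLL-AF4 fusion.

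The data are RNA-seq of poly(A)-enriched RNA from 34 samples of 3 human B-cell acute lymphoblastic leukemia (B-ALL) cell lines, in 12 groups. NALM-6 is labelled ETV6-PDGFRB, RS4;11 is labelled MLL-AF4 (called the MLL-AF4 line where it recurs) and BV-173 is labelled BCR-ABL. In each line, cells were transduced with a lentivirus for *CCND3* shRNA or scrambled shRNA and RNA came from cells sorted for the red fluorescent marker of the vector at day 4. In the other arm, cells received 1 µM palbociclib, an inhibitor of the kinases CDK4 and CDK6, or its solvent DMSO for 3 days. Of the 12 groups, 10 held 3 samples and 2 held 2 (knockdown in NALM-6 and solvent in BV-173). Each fusion was present in 1 cell line, so fusion and line cannot be told apart, and the knockdown rested on 1 shRNA sequence.

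Each table gave 1 level per group for each gene, a read level estimated and scaled within a pair of groups. No value per sample was given in the tables, so the spread between samples and the depth per sample are unknown, no test was run and the levels carry no error. The tables listed 14763 to 15944 genes. *CCND3*, the target of the shRNA and the cyclin partner of CDK4 and CDK6, was at 20.7% (RS4;11), 24.2% (NALM-6) and 31.1% (BV-173) of its control level after knockdown, and at 76.0% to 81.8% with palbociclib. All 10 markers of B lymphoblasts were listed in every table, but *MME* (CD10) was at 2.53 to 6.70 and *DNTT*, the enzyme that adds bases in antigen receptor genes, at 75.2 to 215 in the 4 groups of the MLL-AF4 line, against at least 3723 for *MME* and 5208 for *DNTT* in the other lines. The summed level of 12 markers of other blood and stromal cells was 362 to 1665, with *GATA1* listed nowhere. *CD33* made up 1028 to 1614 of it in BV-173.

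The start regions of *HOXA7*, *HOXA9*, *HOXA10* and *MEIS1*, which had the highest *HOXA* levels in RS4;11 or, for *MEIS1*, encode their partner, are shown first. Sequences are those of RefSeq on GRCh38.p14, from 250 bases before to 50 bases from the outermost start site on, read 5′ to 3′ on the strand of the gene. Capitals mark a match to a HOXA9-type word (TGATTTAC or TGATTTAT). The windows are chr7:27156626-27156925 (minus strand) for *HOXA7*, chr7:27165488-27165787 (minus strand) for *HOXA9*, chr7:27179812-27180111 (minus strand) for *HOXA10* and chr2:66434875-66435174 (plus strand) for *MEIS1*.
HOXA7: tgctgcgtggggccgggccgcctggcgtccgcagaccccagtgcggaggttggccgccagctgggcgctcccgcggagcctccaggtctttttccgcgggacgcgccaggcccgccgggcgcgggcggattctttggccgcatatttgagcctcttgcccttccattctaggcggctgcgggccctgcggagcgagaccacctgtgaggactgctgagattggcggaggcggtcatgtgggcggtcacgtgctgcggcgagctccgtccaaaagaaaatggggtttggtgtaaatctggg
HOXA9: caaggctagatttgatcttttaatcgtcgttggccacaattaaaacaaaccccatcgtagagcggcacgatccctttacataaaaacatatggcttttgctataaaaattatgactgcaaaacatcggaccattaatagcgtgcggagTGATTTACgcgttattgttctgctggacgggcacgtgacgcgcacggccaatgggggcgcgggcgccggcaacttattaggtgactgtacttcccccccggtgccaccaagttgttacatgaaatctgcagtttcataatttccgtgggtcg
HOXA10: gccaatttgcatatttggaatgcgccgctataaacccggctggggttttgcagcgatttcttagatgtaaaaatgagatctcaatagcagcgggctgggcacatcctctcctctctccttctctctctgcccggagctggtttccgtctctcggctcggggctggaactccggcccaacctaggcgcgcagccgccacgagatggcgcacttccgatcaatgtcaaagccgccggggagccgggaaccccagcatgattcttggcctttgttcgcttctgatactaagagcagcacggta
MEIS1: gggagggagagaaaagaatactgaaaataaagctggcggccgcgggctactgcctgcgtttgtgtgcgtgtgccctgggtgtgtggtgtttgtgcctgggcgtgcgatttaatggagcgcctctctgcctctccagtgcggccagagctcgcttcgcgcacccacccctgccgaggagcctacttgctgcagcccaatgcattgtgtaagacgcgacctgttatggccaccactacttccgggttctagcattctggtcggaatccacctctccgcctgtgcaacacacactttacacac
Of the 10 genes, 9 had an entry, with 18 start regions in all. The words searched on both strands were TGATNNAT (HOX-PBX), the pair of HOXA9-type words, TGACAG (MEIS) and the pair TTTCCCGC or TTTGGCGC (E2F). TGATTTAT can also match the HOX-PBX word. Among 34943 promoters of the same length these were found in 7.42%, 1.47%, 15.8% and 2.26%, respectively. The HOXA9-type word stood in the *HOXA9* window with its first base at -102 from the start site. A MEIS word stood in the *PBX3* window at -20 and in 1 of the *MEN1* windows at -180. None of the 18 windows held a HOX-PBX or E2F word in these letters.

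The first question was how the 10 genes differ between the lines without treatment. All 5 *HOXA* members were expressed in RS4;11, the line with the MLL fusion, and were below 1 or not listed in each group of NALM-6 and BV-173. *HOXA9* (gene 3205, chr7:27162438-27165537), the member most often tied to leukemia with MLL fusions, was at 2292 with scrambled shRNA and at 1707 with DMSO in the MLL-AF4 line. In NALM-6 it was at 0.574 with scrambled shRNA and not listed in the palbociclib table. In BV-173 it was at 0.40 with DMSO and not listed in the knockdown table. *HOXA7* (gene 3204) was at 1084 and 1113, and *HOXA10* (gene 3206), which restrains maturation of progenitor cells when overexpressed, at 1278 and 1246 in the scrambled and DMSO groups of the MLL-AF4 line. The control levels of these 3 genes in the MLL-AF4 line therefore lay above 1000, and none of their levels elsewhere passed 0.65. *HOXA3* (gene 3200) and *HOXA5* (gene 3202), which lie nearer the other end of the cluster, were lower in the MLL-AF4 line, at 201 and 121 with scrambled shRNA and at 117 and 98.5 with DMSO.

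Levels below 1 could not rank the 2 other lines. The pair of levels of *HOXA9* in the NALM-6 knockdown table, 0.574 and 0.647, was shared to within 1e-06 by 15 other genes, and that of *HOXA3* in the NALM-6 palbociclib table by 270 other genes. No gene was at 0 in any group, the lowest level being 0.145.

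*MEIS1* (gene 4211, chr2:66435125-66573869) followed the *HOXA* genes but was not absent from BV-173. It was at 1469 and 1421 in the scrambled and DMSO groups of RS4;11, at 12.3 and 16.7 in those of BV-173, and at 0.394 and 1.22 in those of NALM-6. After the 12 groups were set to a common scale with median ratios over the genes of all 6 tables, *MEIS1* in the MLL-AF4 line was 111-fold the level of BV-173 with scrambled shRNA and 75.8-fold with DMSO. The order, with the MLL-AF4 line first, BV-173 next and NALM-6 last, was the same in both kinds of control. *PBX3* (gene 5090) had another order. It was at 1120 and 1033 in NALM-6, at 957 and 777 in the MLL-AF4 line and at 198 and 277 in BV-173. On the common scale the MLL-AF4 line had 4.48-fold the *PBX3* level of BV-173 with scrambled shRNA and 2.49-fold with DMSO, and 0.898 and 0.736 of that of NALM-6.

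**Figure D1:**
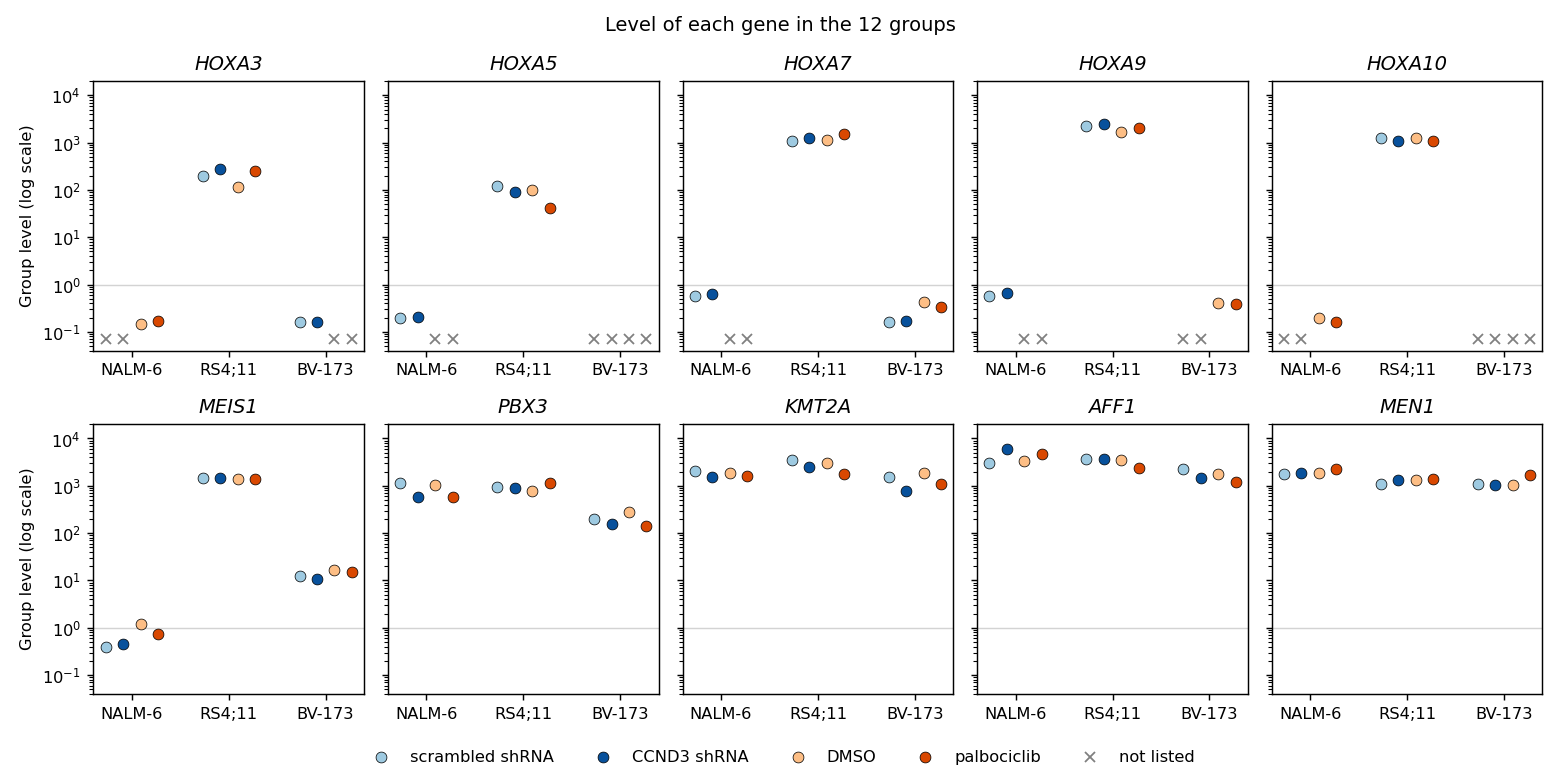
Level of each of the 10 genes (vertical axis, log scale, in the units of the tables) in the 3 cell lines, with 1 point per group and no error, since each group has 1 level. Crosses at the bottom mark groups whose table did not list the gene. The 5 HOXA genes lie between 41.8 and 2421 in RS4;11 and below 1 or unlisted elsewhere, MEIS1 has intermediate points in BV-173, and PBX3, KMT2A, AFF1 and MEN1 lie above 100 in all 3 lines.

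*KMT2A*, *AFF1* and *MEN1* were expressed in all 3 lines. *KMT2A* (gene 4297, chr11:118436492-118526832) was at 3461 and 3016 in the scrambled and DMSO groups of RS4;11, at 2099 and 1893 in NALM-6 and at 1571 and 1853 in BV-173. The MLL-AF4 line thus had the highest *KMT2A* level, by 1.73-fold and 1.56-fold over NALM-6 and by 2.05-fold and 1.45-fold over BV-173 on the common scale. NALM-6 was above BV-173 in both kinds of control in the levels of the tables, while on the common scale it was at 1.18 of BV-173 with scrambled shRNA and at 0.929 with DMSO. *AFF1* (gene 4299, chr4:86935011-87141039) was at 3765 and 3554 in the MLL-AF4 line, at 3101 and 3387 in NALM-6 and at 2235 and 1745 in BV-173, and the MLL-AF4 line and NALM-6 differed by 1.28-fold and 1.03-fold on the common scale. A level per gene cannot tell reads of the fused MLL-AF4 transcript from those of the intact *KMT2A* and *AFF1* alleles. *MEN1* (gene 4221) was at 1764 and 1862 in NALM-6, at 1072 and 1355 in the MLL-AF4 line and at 1115 and 1050 in BV-173, with the highest level in NALM-6.

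In both kinds of control, 8 of the 10 genes had their highest level in RS4;11, against 31.9% of all 12642 genes with a level of at least 10 in some DMSO group and 33.1% of 12835 such genes with scrambled shRNA. The MLL-AF4 line was at least 1.5-fold above both other lines for 6 of the 10 genes with DMSO, where the background was 14.7%, and for 7 with scrambled shRNA, where it was 16.1%. The 6 were the 5 *HOXA* members and *MEIS1*, and *KMT2A* was added with scrambled shRNA. The scrambled and DMSO groups of the MLL-AF4 line differed most for *HOXA3*, by 1.76-fold on the common scale, and for *HOXA9*, by 1.37-fold. These groups differed in virus, solvent and day.

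Within RS4;11, the *HOXA* cluster was read out mainly from 3 neighbouring genes. Levels divided by the length of each gene in its table were highest for *HOXA9*, at 822 to 1166 per kilobase over the 4 groups. *HOXA7* was at 537 to 749 per kilobase and *HOXA10* at 399 to 483. *HOXA3* was at 34.8 to 81.3 per kilobase and *HOXA5* at 25.2 to 72.9. The ranges of *HOXA7*, *HOXA9* and *HOXA10* lay above those of all other *HOXA* genes in every group, and *HOXA9* lay above *HOXA7*, which lay above *HOXA10*. *HOXA7*, *HOXA9* and *HOXA10* held 89.3% to 92.7% of the summed level of 10 *HOXA* genes of the cluster. *HOXA2*, *HOXA4* and *HOXA6* were listed in the MLL-AF4 line only, while *HOXA11* reached 15.3 and *HOXA13*, at the far end, 2.40 per kilobase.

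**Figure D2:**
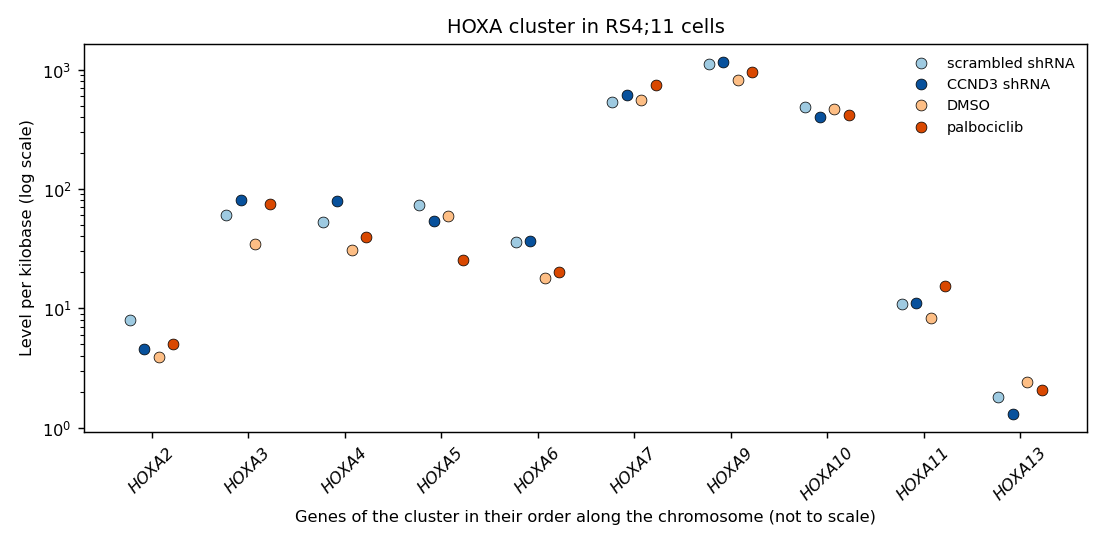
Level per kilobase (vertical axis, log scale) of 10 HOXA genes in their order along the chromosome (horizontal axis, not to scale) in the 4 RS4;11 groups, 1 point per group and no error. HOXA7, HOXA9 and HOXA10 stand between 399 and 1166, the genes on either side below 82.

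Reads of these genes are not fully separable. The RefSeq range of *HOXA3* (chr7:27107010-27152583) overlaps *HOXA4*, *HOXA5* and *HOXA6*, and *HOXA9* and *HOXA10* share a range with the read-through gene *HOXA10-HOXA9*. *HOXA7* overlaps *HOXA-AS3* and *HOXA10* overlaps *HOXA10-AS*, which run antisense, while *KMT2A* overlaps *TTC36-AS1* and *AFF1* overlaps *C4orf36*. Whether counting used strand is not given in the sources used here. The length given for *HOXA3* also varied between tables, from 3257 to 3361 bases.

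Among 69 genes at 100 or more in all 4 RS4;11 groups and below 1 or not listed in every other group, a choice made after the values were seen, *HOXA9* ranked 4 by its geometric mean level per kilobase, *HOXA7* 6, *HOXA10* 11 and *HOXA3* 54. *HOPX*, a small atypical homeobox protein, and *TWIST1*, a basic helix-loop-helix factor, ranked above *HOXA9*. *HOXC4*, of another *HOX* cluster, ranked 13. Of 295 genes listed in both tables of the MLL-AF4 line and in no other, the 5 highest per kilobase were *DUSP23*, *MYL9*, *HAAO*, *FZD8* and *TPSD1*, and *HOXA4* ranked 6, *HOXA6* 16 and *HOXA2* 47.

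The next comparison asked what *CCND3* knockdown did to the 10 genes. A gene was counted as past the threshold where the levels of *CCND3* shRNA and scrambled shRNA differed by at least 1.5-fold, a log2 ratio of 0.58. In RS4;11, 0 of the 10 genes passed in either direction, while 9.73% of all genes passed upwards and 9.72% downwards. In NALM-6, 1 of 8 listed genes passed upwards (background 7.82%) and 1 downwards (8.47%). In BV-173, 0 of 7 passed upwards (3.32%) and 2 downwards (4.78%).

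In RS4;11, *HOXA9* was at 2292 with scrambled shRNA and 2421 with *CCND3* shRNA, a log2 ratio of 0.08. *HOXA7* was at 1084 and 1230 (0.18) and *HOXA10* at 1278 and 1056 (-0.28). The 3 genes with most *HOXA* transcript thus kept their level to within 1.21-fold. *HOXA3* was at 201 and 271 (0.43) and *HOXA5* at 121 and 88.4 (-0.45), the widest ratios of the *HOXA* members. *MEIS1* was at 1469 and 1490 (0.02) and *PBX3* at 957 and 904 (-0.08).

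*PBX3* differed most in NALM-6, where it was at 1120 with scrambled shRNA and at 573 after knockdown, a log2 ratio of -0.97. In BV-173 it was at 198 and 154 (-0.37). *MEIS1* in BV-173 was at 12.3 and 10.5 (-0.23). The NALM-6 levels of *HOXA5*, *HOXA7*, *HOXA9* and *MEIS1* were all below 0.65 in both groups, so their ratios carry no information on a change.

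*KMT2A* was lower after knockdown in each line but passed 1.5-fold in 1. In BV-173 it was at 1571 and 770, a log2 ratio of -1.03. In RS4;11 it was at 3461 and 2542 (-0.45), and in NALM-6 at 2099 and 1536 (-0.45). *AFF1* went different ways in the lines. It was at 3101 and 6076 in NALM-6 (0.97), at 3765 and 3668 in the MLL-AF4 line (-0.04) and at 2235 and 1466 in BV-173 (-0.61). *MEN1* stayed within 1.22-fold of its control, at 1764 and 1888 in NALM-6 (0.10), 1072 and 1312 in the MLL-AF4 line (0.29) and 1115 and 1032 in BV-173 (-0.11).

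**Figure D3:**
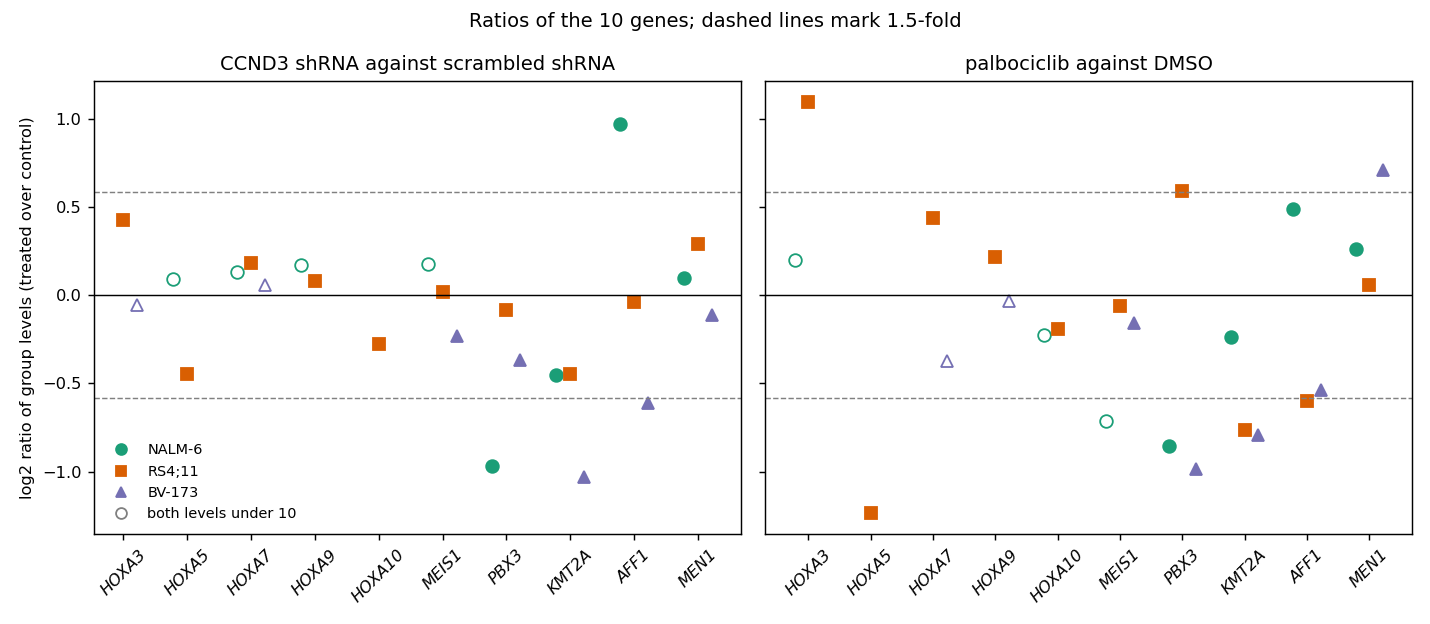
log2 ratio of the 2 group levels (vertical axis, treated over control) for each gene and line with CCND3 shRNA (left) and palbociclib (right). Open symbols mark genes with both levels under 10, dashed lines mark 1.5-fold and there are no error bars, since each group has 1 level. In RS4;11 no gene is outside the lines on the left and 5 are on the right, from HOXA3 at 1.10 to HOXA5 at -1.24, and KMT2A is below 0 in all 6 comparisons.

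In RS4;11, 5 of the 10 genes passed 1.5-fold with palbociclib and 0 with knockdown, and the share of all genes that passed was also higher with palbociclib. Against DMSO, 2 of 10 genes passed 1.5-fold upwards (background 16.7%) and 3 downwards (15.0%) in the MLL-AF4 line. In NALM-6, 0 of 7 listed genes passed upwards (21.4%) and 2 downwards (14.9%), and in BV-173 1 of 7 passed upwards (13.6%) and 2 downwards (11.9%).

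In RS4;11, *HOXA3* was at 117 with DMSO and at 250 with palbociclib, a log2 ratio of 1.10. *HOXA5* was at 98.5 and 41.8 (-1.24), the opposite direction, although the range of *HOXA3* contains *HOXA5*. The controls of this line also differed. On the common scale the scrambled shRNA group was above the DMSO group by 1.76-fold for *HOXA3* and 1.25-fold for *HOXA5*. The 3 main *HOXA* genes stayed within 1.36-fold, with *HOXA7* at 1113 and 1511 (0.44), *HOXA9* at 1707 and 1987 (0.22) and *HOXA10* at 1246 and 1092 (-0.19). *MEIS1* was at 1421 and 1364 (-0.06). *HOXA9*, *HOXA10* and *MEIS1* thus remained within 1.21-fold of their control level in both comparisons of the MLL-AF4 line.

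*PBX3* took opposite directions with palbociclib. In RS4;11 it was at 777 and 1169, a log2 ratio of 0.59 that fell to 0.58, just short of 1.5-fold, when the median ratio of the table was set to 0. In NALM-6 it was at 1033 and 571 (-0.85) and in BV-173 at 277 and 140 (-0.98). After palbociclib, the MLL-AF4 line therefore held the highest *PBX3* level of the 3 lines. *MEIS1* in BV-173 was at 16.7 and 15.0 (-0.16). In NALM-6 it was at 1.22 and 0.743, a log2 ratio of -0.72 at a level so low that adding 1 to both levels gave -0.35.

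*KMT2A* was lower with palbociclib in each line. It was at 3016 and 1774 in RS4;11 (-0.77), at 1853 and 1069 in BV-173 (-0.79) and at 1893 and 1609 in NALM-6 (-0.23), of which the first 2 passed 1.5-fold. With knockdown included, *KMT2A* was below its control in 6 of 6 comparisons, and past 1.5-fold in 3. Among genes at a level of at least 10, 12.3% (RS4;11), 9.16% (BV-173) and 34.6% (NALM-6) had a ratio as low with palbociclib. With knockdown the shares were 16.1%, 0.495% and 14.8% in the same order. The share of all genes below control in every comparison was not counted. *AFF1* was at 3554 and 2343 in the MLL-AF4 line (-0.60), at 1745 and 1204 in BV-173 (-0.54) and at 3387 and 4744 in NALM-6 (0.49). In NALM-6 *AFF1* was above its control with both treatments. *MEN1* was at 1050 and 1715 in BV-173 (0.71), at 1862 and 2231 in NALM-6 (0.26) and at 1355 and 1410 in the MLL-AF4 line (0.06).

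The genes around the 10 were taken from lists written from general knowledge, with medians over genes at a level of at least 10 in either group. Over all such genes the median log2 ratio was between -0.0066 and 0.00013 in the 6 comparisons. Of 5 other *HOXA* genes with reads in RS4;11, *HOXA11* was at 22.0 with DMSO and 40.6 with palbociclib (0.88), past 1.5-fold. With knockdown *HOXA2*, at 14.2 and 8.17 (-0.80), passed downwards. *HOXB4*, of the *HOXB*, *HOXC* and *HOXD* list, was at 13.7 and 23.5 in BV-173 with palbociclib (0.78). Of 28 genes of that list, 4 reached a level of 10 in the MLL-AF4 line, all of the *HOXC* cluster, and *HOXC5* passed downwards with palbociclib, at 44.1 and 28.5 (-0.63). Among 9 other TALE genes, *PBX4* was low and passed downwards in NALM-6 and the MLL-AF4 line with both treatments, with log2 ratios from -0.69 to -0.87. *MEIS2*, the closest relative of *MEIS1* in the list, was at 177 and 104 with palbociclib in the MLL-AF4 line (-0.77), and *TGIF2* was at 992 and 1537 with knockdown in NALM-6 (0.63).

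The 13 genes of the MLL complex and its relatives were at a level of at least 10 in every table. With palbociclib their median log2 ratio was -0.28 (NALM-6), -0.39 (RS4;11) and -0.28 (BV-173), and 3, 4 and 4 of the 13 passed downwards (17.6%, 16.7% and 14.3% of all genes at that level), beside 1 that passed upwards, *SETD1B* in NALM-6 (1.09). With knockdown it was -0.05, -0.17 and -0.15 in the same order, and 1, 2 and 0 passed downwards (10.4%, 11.4% and 5.55% of all), while *SETD1B* again passed upwards in NALM-6 (0.73). *PSIP1*, which encodes LEDGF, the protein that ties menin and MLL to chromatin, was at 5001 with DMSO and 1307 with palbociclib in the MLL-AF4 line (-1.94), at 4348 and 1427 in NALM-6 (-1.61) and at 3118 and 1015 in BV-173 (-1.62). With knockdown its ratios were -1.0 in the MLL-AF4 line, -0.90 in NALM-6 and -0.36 in BV-173. *ASH2L*, a core subunit, passed downwards with palbociclib in NALM-6 (-0.61) and BV-173 (-0.60), and *KDM6A*, a histone demethylase, in the MLL-AF4 line (-0.63) and BV-173 (-0.74). The others that passed downwards with palbociclib were *DPY30* in NALM-6 (-0.73), *HCFC1* (-1.10) and *WDR5* (-0.81) in the MLL-AF4 line and *RBBP5* in BV-173 (-0.63), all of them subunits, and *HCFC1* did so with knockdown in the MLL-AF4 line (-0.71).

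The super elongation and DOT1L complexes, to which AF4 belongs, had no common direction. Their median with palbociclib was 0.29 (NALM-6), 0.04 (the MLL-AF4 line) and 0.02 (BV-173). Of 15, 14 and 15 genes of the list at a level of 10, 5, 2 and 1 passed upwards (19.8%, 16.9% and 15.0% of all genes at that level) and 2, 2 and 1 downwards (17.6%, 16.7% and 14.3%). With knockdown the medians were 0.11, -0.04 and -0.10, with 1, 2 and 1 upwards (8.79%, 10.6% and 4.07% of all) and 1 downwards in each line. *AFF3*, a relative of *AFF1*, was at 98.4 with DMSO and 489 with palbociclib in the MLL-AF4 line (2.31) and at 290 and 904 in NALM-6 (1.64). With knockdown it was at 94.0 and 327 in the MLL-AF4 line (1.80), and at 313 and 387 in NALM-6 (0.31). In BV-173, where its level was highest, *AFF3* did not pass, at 2714 and 3884 with palbociclib (0.52) and 2879 and 2492 with knockdown (-0.21). *AFF2* passed upwards in NALM-6 with both treatments, at 17.8 and 55.1 with palbociclib (1.63) and at 25.7 and 64.8 with knockdown (1.33). *ELL2*, an elongation factor, passed upwards in the MLL-AF4 line with palbociclib (1.19) and with knockdown (0.91), and in BV-173 with palbociclib (0.68). *EAF2*, which binds ELL proteins, passed downwards with palbociclib in all 3 lines, from -0.81 to -0.98, and with knockdown in NALM-6 (-0.92) and the MLL-AF4 line (-1.14). *DOT1L*, a histone methyltransferase recruited by MLL fusions, passed downwards with palbociclib in NALM-6 (-0.59) and the MLL-AF4 line (-0.82).

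Of 14 further genes known as targets of MLL fusions, 13 reached a level of 10 in a line, and RS4;11 was highest for 9 with DMSO (31.9% of all genes) and for 10 with scrambled shRNA (33.1%). It was at least 1.5-fold above both other lines for 8 and 9 of them (14.7% and 16.1% of all). *PROM1* (CD133) was at 9979 on the common scale in the MLL-AF4 line with DMSO and at 2.99 and 2.64 in NALM-6 and BV-173. *CSPG4*, the NG2 antigen, was at 3950, 13.0 and 375 in the same order. Other genes of the list were lowest in the MLL-AF4 line with DMSO. In the same order, *RUNX2* was at 0.158, 3.80 and 17.3 and *SKIDA1* at 4.86, 54.9 and 19.9. *LMO2* was at 370, 524 and 767 and *MYB* at 8300, 12204 and 12284. With scrambled shRNA *LMO2* was instead highest in the MLL-AF4 line by a small margin, at 495, 483 and 482. *RUNX2*, *SKIDA1* and *MYB* remained lowest there, with *MYB* at 7361, 7931 and 7629. The median log2 ratio of the list with palbociclib was 0.41 in the MLL-AF4 line, 0.39 in NALM-6 and -0.25 in BV-173, and with knockdown 0.06, -0.50 and -0.31 in the same order. With knockdown 2 of 12 passed upwards (10.6% of all genes at a level of 10) and 2 downwards (11.4%) in the MLL-AF4 line. The 2 downwards were *BCL2* and *PROM1*, the latter at 12247 with scrambled shRNA and 7018 after knockdown (-0.80). In NALM-6 3 of 10 passed downwards (10.4%) and in BV-173 3 of 11 (5.55%), with 0 upwards in either. *BCL2*, which blocks apoptosis, was past 1.5-fold downwards with knockdown in all 3 lines, at 4332 and 2544 in the MLL-AF4 line (-0.77), 938 and 482 in NALM-6 (-0.96) and 1050 and 662 in BV-173 (-0.67), while with palbociclib its ratios were 0.12, -0.15 and -0.10 in the same order. With palbociclib 3 of 11 passed upwards (19.8%) and 1 downwards (17.6%) in NALM-6, and 0 of 11 upwards (15.0%) and 3 downwards (14.3%) in BV-173. In the MLL-AF4 line 5 of 12 passed upwards (16.9%) and 0 downwards (16.7%), with *EYA1* at 8.11 and 29.7 (1.87), *CSPG4* at 4186 and 12453 (1.57), *ZNF521* at 20.0 and 43.7 (1.12), *LGALS1* at 8441 and 13974 (0.73) and *LMO2* at 393 and 621 (0.66). *RUNX2*, a factor of bone and lymphoid cells, was at 18.9 and 10.1 with knockdown in BV-173 (-0.90) and at 4.97 and 2.81 in NALM-6 (-0.82).

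**Figure D4:**
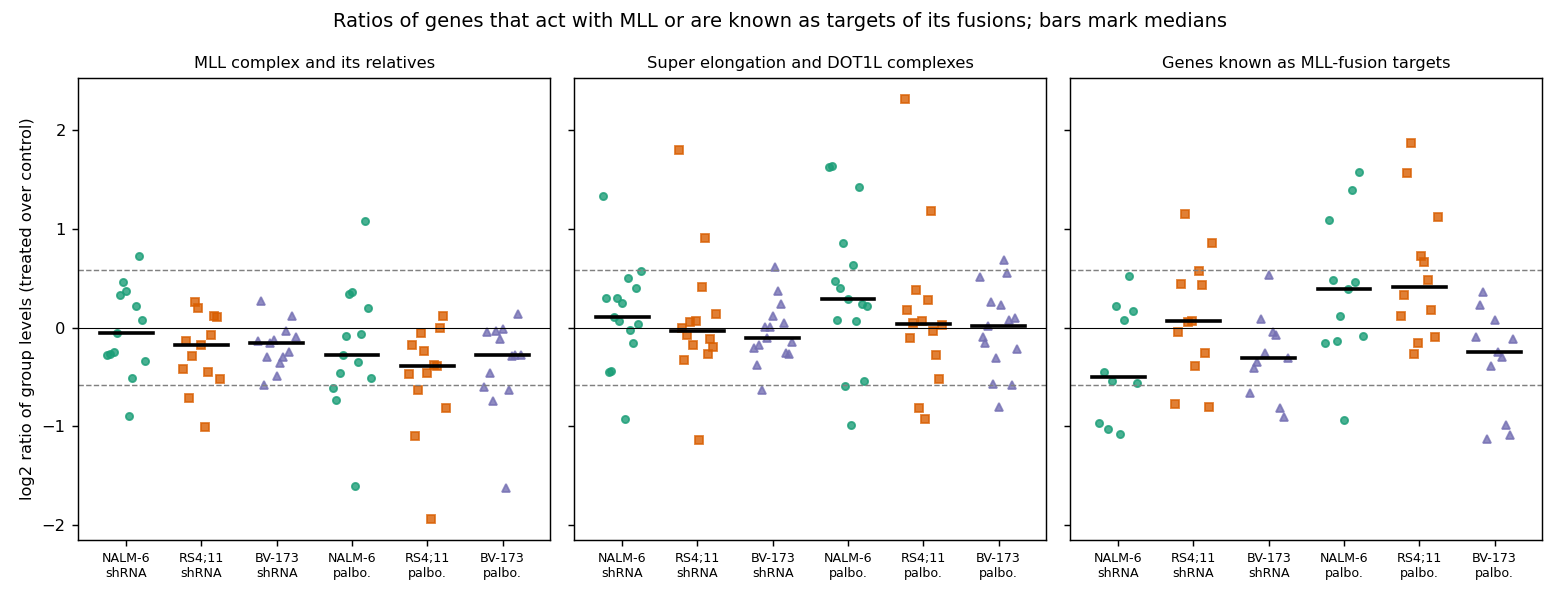
log2 ratio of group levels (vertical axis, treated over control) of the genes of 3 lists at a level of at least 10 in either group, for CCND3 shRNA and palbociclib (palbo.) in each line, 1 point per gene, with black bars at the medians and dashed lines at 1.5-fold. The medians of the MLL complex list lie at -0.28, -0.39 and -0.28 with palbociclib, with PSIP1 the lowest point in each line.

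Markers moved with some of these ratios. With palbociclib the summed level of the 10 B-lymphoblast markers went from 49897 to 74510 in RS4;11, from 98599 to 123145 in NALM-6 and from 70199 to 62771 in BV-173. Of 9, 10 and 10 markers at a level of 10, in this order of lines, 4, 2 and 2 passed upwards (16.9%, 19.8% and 15.0% of all such genes). Downwards 1, 1 and 5 passed (16.7%, 17.6% and 14.3%), and the median log2 ratio was 0.55, 0.34 and -0.45. With knockdown 3, 2 and 0 passed upwards (10.6%, 8.79% and 4.07%) and 1, 0 and 2 downwards (11.4%, 10.4% and 5.55%). *CD22* passed upwards with knockdown in NALM-6 (1.24) and the MLL-AF4 line (1.37). *CD79A* passed upwards with palbociclib in all 3 lines (0.71 to 1.82), *DNTT* downwards in the MLL-AF4 line (-1.19) and BV-173 (-0.70), and *RAG1* downwards in BV-173 (-1.93). Of the markers of other cells, *CD33* passed upwards with knockdown in NALM-6 (0.64) and the MLL-AF4 line (0.83), and *MPO* went from 13.5 to 1.05 with palbociclib in the MLL-AF4 line and from 13.8 to 68.4 in NALM-6. The part of such shifts in the ratios of the 10 genes was not tested.

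Across the 12 groups on the common scale, the genes with log2 levels most like *MEIS1* were *STX1A* (Pearson r of 0.991), *KBTBD13* (0.989) and *AHNAK* (0.987). Those most like *KMT2A* were *KDM6A* (0.921), *RSBN1L* (0.917) and *TPPP* (0.904). The 12 points come from 3 lines and share tables in pairs, and for *MEIS1* they fall into 3 clusters, 1 per line.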

How the data were processed

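RNA of 34 samples was sequenced by BGI, as given in the series' labels. Reads were filtered with SOAPnuke, mapped to hg38 with Bowtie2 and quantified with RSEM by the authors, who used DESeq2 for each treated group against its control. In the tables the authors deposited, each group has 1 signal (a level on the scale of its pair), and other columns hold gene lengths, annotations and the authors' own log2 fold changes, p-values and calls. The latter were not used. Gene names and identifiers are those of the tables, and positions are those of RefSeq on GRCh38.p14.

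Samples were grouped by labelled line and treatment. The log2 ratio of treated over control level was computed per table, and 1.5-fold was the threshold. For comparisons between lines the 12 columns were rescaled by median ratios over 13307 genes, with factors from 0.925 to 1.09. Genes not listed counted as lower than listed genes. Levels between genes were compared per kilobase. Depth and replicate spread are unknown, so precision cannot be given.

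The members and gene lists were chosen with earlier results of these data known. Named genes were the 10 members, *CCND3*, list genes past 1.5-fold in the same direction in at least 2 lines under 1 treatment, the list gene with the largest ratio at a level of at least 10, the 5 highest genes listed only in RS4;11, and the 3 genes most like *MEIS1* and *KMT2A*. *HOXA2*, *HOXC4*, *HOXC5*, *MEIS2*, *TGIF2*, *PROM1*, *CSPG4*, *ZNF521*, *LGALS1*, *LMO2*, *SKIDA1*, *MYB*, *SETD1B*, *DPY30*, *HCFC1*, *WDR5*, *RBBP5*, *MME*, *GATA1*, *HOPX* and *TWIST1* were named after their values were seen. Some genes that the rule names are not reported here. The alternatives were a 2-fold threshold, a centred median, a minimum level of 10, a pseudocount of 1, shares of the column sum and scrambled in place of DMSO groups. Python 3.11.15, numpy 2.4.6, pandas 2.3.3 and matplotlib 3.10.9 were used, and the steps were tested on simulated data.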

Additional observations from a re-analysis of the deposited data

Results flagged for a closer look

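*AFF1* with *CCND3* shRNA went up in NALM-6 (log2 ratio 0.97) and down in BV-173 (-0.61), a difference of 1.58 between the lines. *PBX3* with palbociclib was past 1.5-fold upwards in RS4;11 (0.59) and downwards in NALM-6 (-0.85) and BV-173 (-0.98), so RS4;11 lay 1.44 above NALM-6 and 1.58 above BV-173 on the log2 scale. Each was singled out because the levels passed 1.5-fold in opposite directions in 2 lines. With 1 level per group these differences were not tested.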

How the results depend on the processing

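A 2-fold threshold left 0 of 2 genes with knockdown in NALM-6, 1 of 2 in BV-173 and 0 in RS4;11 as before, and with palbociclib 0 of 2 in NALM-6, 2 of 5 in RS4;11 and 0 of 3 in BV-173. A minimum level of 10 or 1 added to both levels left 1 of 2 genes with palbociclib in NALM-6, since *MEIS1* was lost. Centring the ratios left 4 of 5 genes with palbociclib in RS4;11, since *PBX3* was lost at 0.58. None of the 49 ratios of the 10 genes changed direction under these alternatives, of which the minimum level kept 38. The ratios of the lists were not recomputed under them. The count of 8 genes highest in RS4;11 was the same with shares of the column sum and with scrambled shRNA groups. No paired analysis was possible because the tables give 1 level per group. Without values per sample, no library could be left out, and neither sampling error nor replicate spread could be set against any ratio. Levels below 1 were shared by many genes and hold no order between lines.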
